A study of Rattus norvegicus with 16 samples.

Results

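The genes described here encode, in the nucleus, the proteins of the 5 complexes of oxidative phosphorylation, read out in whole blood of 16 adult male Sprague-Dawley rats. Each rat, 85 to 90 days old, had received 4 injections of normal saline of 1 ml/kg at intervals of 2 h, without food or water, and was sacrificed 3 h after the last injection. Blood was drawn by cardiac puncture, RNA was depleted of globin mRNA, and polyadenylated RNA was sequenced. All 16 libraries belong to 1 group, the saline controls, numbered 1 to 16 as in the labels, and no treated group was compared.

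Members were chosen by symbol: 86 of the 18031 genes listed in every library have a symbol that begins with Nduf (followed by A, B, C, S or V and a number), Uqcr, Cox4 to Cox8 or Atp5, or is Sdha, Sdhb, Sdhc, Sdhd or Cyc1. They comprise 37 genes of complex I, 4 of complex II, 10 of complex III, 17 of complex IV and 18 of complex V, under 82 distinct symbols. The names fit this class with a few exceptions. Atp5s, Atp5sl, Cox4nb, Cox7a2l and Cox7a2l2 (5 genes) were not counted as subunits, from general knowledge and not from these data. They are set apart where members are grouped by role and are described separately below. Values given for a whole complex or for all members include them. Ndufa4 is counted in complex I by its symbol, although its protein is now assigned to complex IV. Ndufs5, Ndufv3, Uqcrb and Atp5f1 each have 2 entries, and reads of near-identical copies may have been divided between them. A further 6 matching symbols (Cox8c, NDUFB4, Ndufa4l2, Ndufb3l, Ndufb4l1 and Ndufs6) were not listed in all files and were not used here.

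Complexes I and II pass electrons from NADH and succinate to ubiquinone, complex III passes them to cytochrome c, and complex IV to oxygen. Complexes I, III and IV pump protons across the inner mitochondrial membrane, and complex V, ATP synthase, uses the gradient to make ATP. Mature red cells hold no mitochondria, whereas reticulocytes, the youngest red cells in the circulation, still carry some along with mRNA, and white cells and platelets keep theirs. In bulk blood, fewer cells of a type and less RNA per cell cannot be told apart.

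Promoters of 4 members are shown because these genes carry the contrasts described below. Atp5b and Atp5a1 encode the alternating subunits of the same catalytic head but varied differently among the rats. Cox4i1 was the member most like Atp5b, and Sdha represents complex II. Each window spans 250 bases before to 50 after the gene's start in RefSeq's annotation of the rat assembly GRCr8. Capitals mark matches to 4 motifs, each searched on both strands. The NRF1 motif was spelled CGCANGCGC, where N is any base. The ETS motif was spelled CCGGAAG. The GATA motif, by its own letters, was AGATAA, and the YY1 motif was AAGATGGC.
Atp5b (GRCr8, chr7:1099808-1100107, plus strand, RefSeq symbol Atp5f1b): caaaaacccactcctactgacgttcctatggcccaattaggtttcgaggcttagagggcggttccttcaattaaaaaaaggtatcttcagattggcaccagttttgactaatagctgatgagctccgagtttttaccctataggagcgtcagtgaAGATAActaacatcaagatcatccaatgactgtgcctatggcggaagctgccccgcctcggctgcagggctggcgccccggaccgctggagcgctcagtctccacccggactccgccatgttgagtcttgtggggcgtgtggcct
Atp5a1 (GRCr8, chr18:73567287-73567586, plus strand, RefSeq symbol Atp5f1a): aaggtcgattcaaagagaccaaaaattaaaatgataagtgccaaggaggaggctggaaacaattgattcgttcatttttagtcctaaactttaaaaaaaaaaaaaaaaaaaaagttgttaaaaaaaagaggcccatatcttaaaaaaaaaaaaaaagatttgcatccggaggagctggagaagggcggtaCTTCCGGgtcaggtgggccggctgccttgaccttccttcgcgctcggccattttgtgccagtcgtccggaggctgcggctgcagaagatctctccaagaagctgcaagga
Cox4i1 (GRCr8, chr19:65630133-65630432, plus strand, RefSeq symbol Cox4i1): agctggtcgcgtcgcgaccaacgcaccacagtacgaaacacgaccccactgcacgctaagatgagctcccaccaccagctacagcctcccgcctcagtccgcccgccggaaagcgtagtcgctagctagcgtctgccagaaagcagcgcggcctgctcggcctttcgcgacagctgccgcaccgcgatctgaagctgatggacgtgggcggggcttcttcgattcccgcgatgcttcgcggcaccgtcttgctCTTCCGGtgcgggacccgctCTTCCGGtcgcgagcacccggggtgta
Sdha (GRCr8, chr1:30764303-30764602, plus strand, RefSeq symbol Sdha): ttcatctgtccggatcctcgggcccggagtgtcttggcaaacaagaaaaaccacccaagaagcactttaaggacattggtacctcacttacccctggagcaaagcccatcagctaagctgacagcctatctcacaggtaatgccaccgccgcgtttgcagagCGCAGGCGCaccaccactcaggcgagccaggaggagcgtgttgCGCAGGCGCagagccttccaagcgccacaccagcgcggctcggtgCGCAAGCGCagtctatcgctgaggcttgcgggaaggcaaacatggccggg
The Atp5b window held 1 GATA match and none of the other 3 motifs, the Atp5a1 window 1 ETS match, the Cox4i1 window 2 ETS matches and the Sdha window 3 NRF1 matches. Of the 82 symbols, 71 matched a promoter entry by current or older symbol. The NRF1 motif was in 19 of these 71 windows (26.8%) and in 6.34% of all 27457 rat promoters of this length. Its spelling was settled after the matches of 3 spellings had been seen, and the counts depend on it. With a G before the letters given, 13 windows matched (18.3%, against 4.71% of all promoters) and the Sdha window again held 3 matches. Spelled CGCATGCG, the motif was in 7 windows (9.86%, against 1.81%), and the Sdha window held 0 matches. The ETS motif was in 21 (29.6% against 9.22%), the YY1 motif in 14 (19.7% against 3.44%) and the GATA motif in 7 (9.86% against 11.3%). The ETS and YY1 motifs share 3 letters and can overlap, which occurred in 0 of the 71 windows. By complex, the NRF1 motif was in 7 of 32 windows of complex I, 2 of 4 of complex II, 2 of 6 of complex III, 1 of 14 of complex IV and 7 of 15 of complex V. These matches are letters in a window and say nothing on whether a factor binds there.

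Libraries held 21466776 to 31189549 counts, which set a floor of 3 counts at 0.0962 to 0.14 CPM, counts scaled to a library's total. Levels are given as normalized counts, which are counts divided by a library's median-ratio size factor, and which also depend on transcript length. Libraries were therefore compared within a gene. Where a member is called the highest or lowest of its complex, this is by count, without correction for length. The same holds for a gene's part of a complex's counts. The run code in the file names divides the libraries into 6 runs: A (controls 1 to 3), B (4, 5, 7, 8 and 10), C (6 and 9), D (11 to 14), E (15) and F (16). The labels do not say what a run code stands for. The leukocytes of whole blood were represented in each library, with a summed level of 4 pan-leukocyte markers of 37826 to 82356 normalized counts. Control 10 stood apart. It had the lowest size factor (0.642 against at most 1.46), the highest Alas2 level and the highest summed level of 8 heart muscle markers (546 normalized counts, median of all libraries 20.01, 0 in control 6), and the lowest summed level of 7 platelet markers (7451, median 57303).

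The members together took 0.707% ± 0.0968 (SD, n = 16) of all counts. The share was lowest in control 14, at 0.583% (95% Wilson interval 0.58 to 0.585), and highest in control 10, at 0.991% (0.987 to 0.994). The next highest was control 12, at 0.81%. These intervals cover counting error only. Globin genes left after depletion are part of all counts and took 2.96% (control 1) to 15.5% (control 2) of them. With globin left out, the share was lowest in control 1, at 0.631%, and highest in control 10, at 1.08%. The next highest was then control 5, at 0.86%. The order of the libraries other than control 10 thus depends on the globin that remained.

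The shares of complexes I, III, IV and V moved alike in the extreme library, and that of complex II did not. Complex I genes took 0.173% ± 0.025 of the counts, from 0.149% in control 11 to 0.25% in control 10. Complex III genes took 0.108% ± 0.0207, from 0.0807% in control 14 to 0.167% in control 10. Complex IV genes took 0.19% ± 0.0269, from 0.159% in control 1 to 0.269% in control 10. Complex V genes took 0.222% ± 0.0323, from 0.177% in control 14 to 0.296% in control 10. Control 10 was thus the highest of 16 for each of these 4 complexes. With globin counts left out it remained so, while control 1 became the lowest for complexes I and III (0.159% and 0.0899%). Complex II genes took 0.0145% ± 0.00332, and here control 10 was the lowest, at 0.00906% (0.00869 to 0.00944), while control 12 was the highest, at 0.0214% (0.0208 to 0.0219). A share also depends on the counts of all other genes. The size factor of control 10 was 0.642 by median ratios and 0.977 by total counts. A gene at an unchanged normalized count thus has a lower share there. By normalized counts control 10 was not the lowest library for any complex II gene. Complex II, succinate dehydrogenase, is the only one of the 5 that is also an enzyme of the tricarboxylic acid cycle and that has no subunit encoded in mitochondrial DNA.

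**Figure D1:**
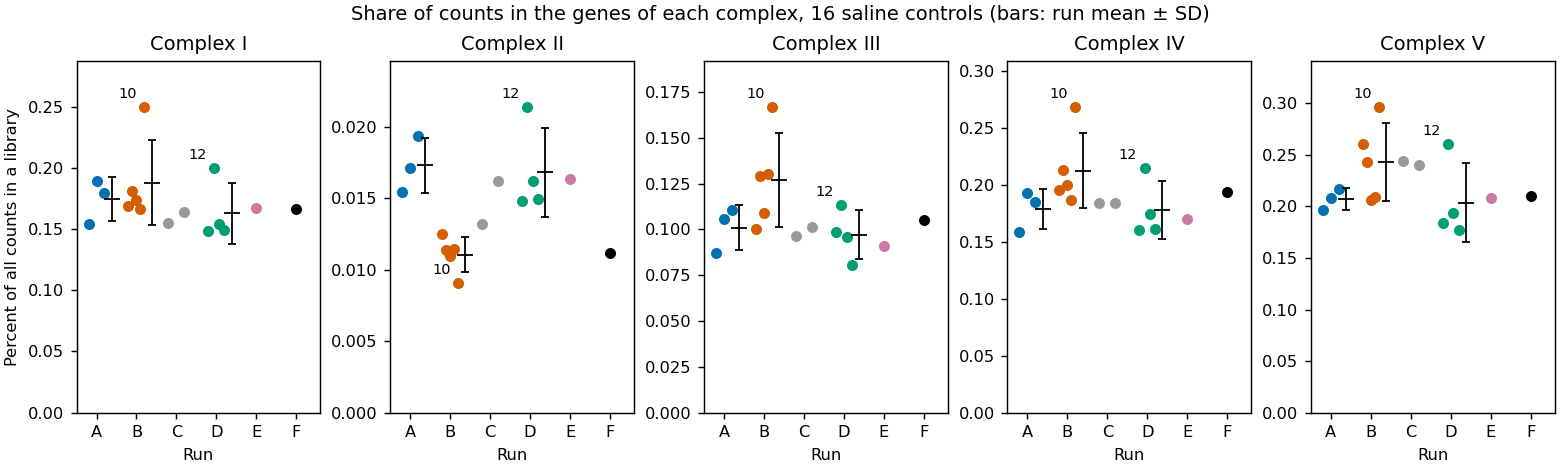
Each point is 1 library (control), placed by run on the horizontal axis, and the vertical axis gives the percent of the library's counts in the genes of a complex, starting at 0 (panels have different scales). Bars give the mean ± SD of runs A, B and D. Control 10 tops complexes I, III, IV and V and is lowest in complex II, and control 12 is highest in complex II.

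A single gene made up much of some of these shares. Uqcrh, the acidic hinge protein of complex III, held 72.4% of that complex's counts. Atp5b, the catalytic beta subunit of ATP synthase, held 48.2% of those of complex V. Ndufa1, a small accessory protein of complex I, held 39.7%, Sdha, the flavoprotein of complex II, 29.5%, and Cox6a1, a small regulatory subunit of complex IV, 23.9%. A share thus weights its leading gene heavily, and the members were also followed one by one.

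Variation was measured as the coefficient of variation (SD over mean, 16 libraries) in the 80 members with a mean of at least 100 normalized counts. Its median was 24.7% for the members and 24.8% for the 8672 genes above the same minimum. By complex it was 25.2% for complex I (36 genes), 17.3% for complex II (4 genes), 23.9% for complex III (10 genes), 35.2% for complex IV (13 genes) and 25.0% for complex V (17 genes). Without control 10 the value of complex IV was 27.8% and that of complex II 17.6%. None of the 4 complex II genes exceeded the median of all genes, against 18 of 36 in complex I and 9 of 13 in complex IV.

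Alas2, the first enzyme of heme synthesis in red cell precursors, was used to order the libraries by their erythroid transcripts. Its level was lowest in control 11, at 136027 normalized counts, and highest in control 10, at 631489, with a median of 248085. Run B held 271109 to 631489, above the 192471 to 236294 of run A and the 136027 to 185812 of run D. The erythroid marker list (8 of 9 genes found) had a summed level of 338969 in control 11, a median of 562531 and 1422780 in control 10.

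Over the 16 libraries many members rose and fell with Alas2, and others of the same complex did so less or not. The median Pearson correlation of log2 levels with Alas2 over the 16 libraries was 0.52 for the 80 members and -0.06 for the 8672 genes, and the Spearman values were 0.49 and -0.05. Of the members, 24 (30%) had r above 0.8, against 5.25% of all genes, and 9 (11.2%) had r below 0, against 58.1%. These values are descriptions over libraries that share their scaling, and the log2 size factor itself had r = -0.84 with Alas2. With total count scaling the medians were -0.22 and -0.38, so the sign of the median turned while the members stayed above all genes. With run means subtracted (14 libraries of 4 runs) they were 0.54 and -0.003. Without controls 10 and 5, whose Alas2 lay farthest from the median, they were 0.34 and -0.01. Only Cox6a1 (0.85) and Atp5b (0.83) kept r above 0.8 with total count scaling. Correlations of the members with Pf4 (platelets), Cd3e (T cells), Cd79b (B cells) and Camp (neutrophils) had medians of 0.06, 0.03, 0.06 and 0.05. Single members lay far from these medians. Values ran from -0.58 (Atp5sl) to 0.77 (Cox5a) for Pf4 and from -0.40 (Ndufb9) to 0.65 (Ndufs3) for Cd3e. They ran from -0.46 (Ndufa12) to 0.68 (Atp5a1) for Cd79b and from -0.49 (Ndufv1) to 0.61 (Sdhb) for Camp.

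**Figure D2:**
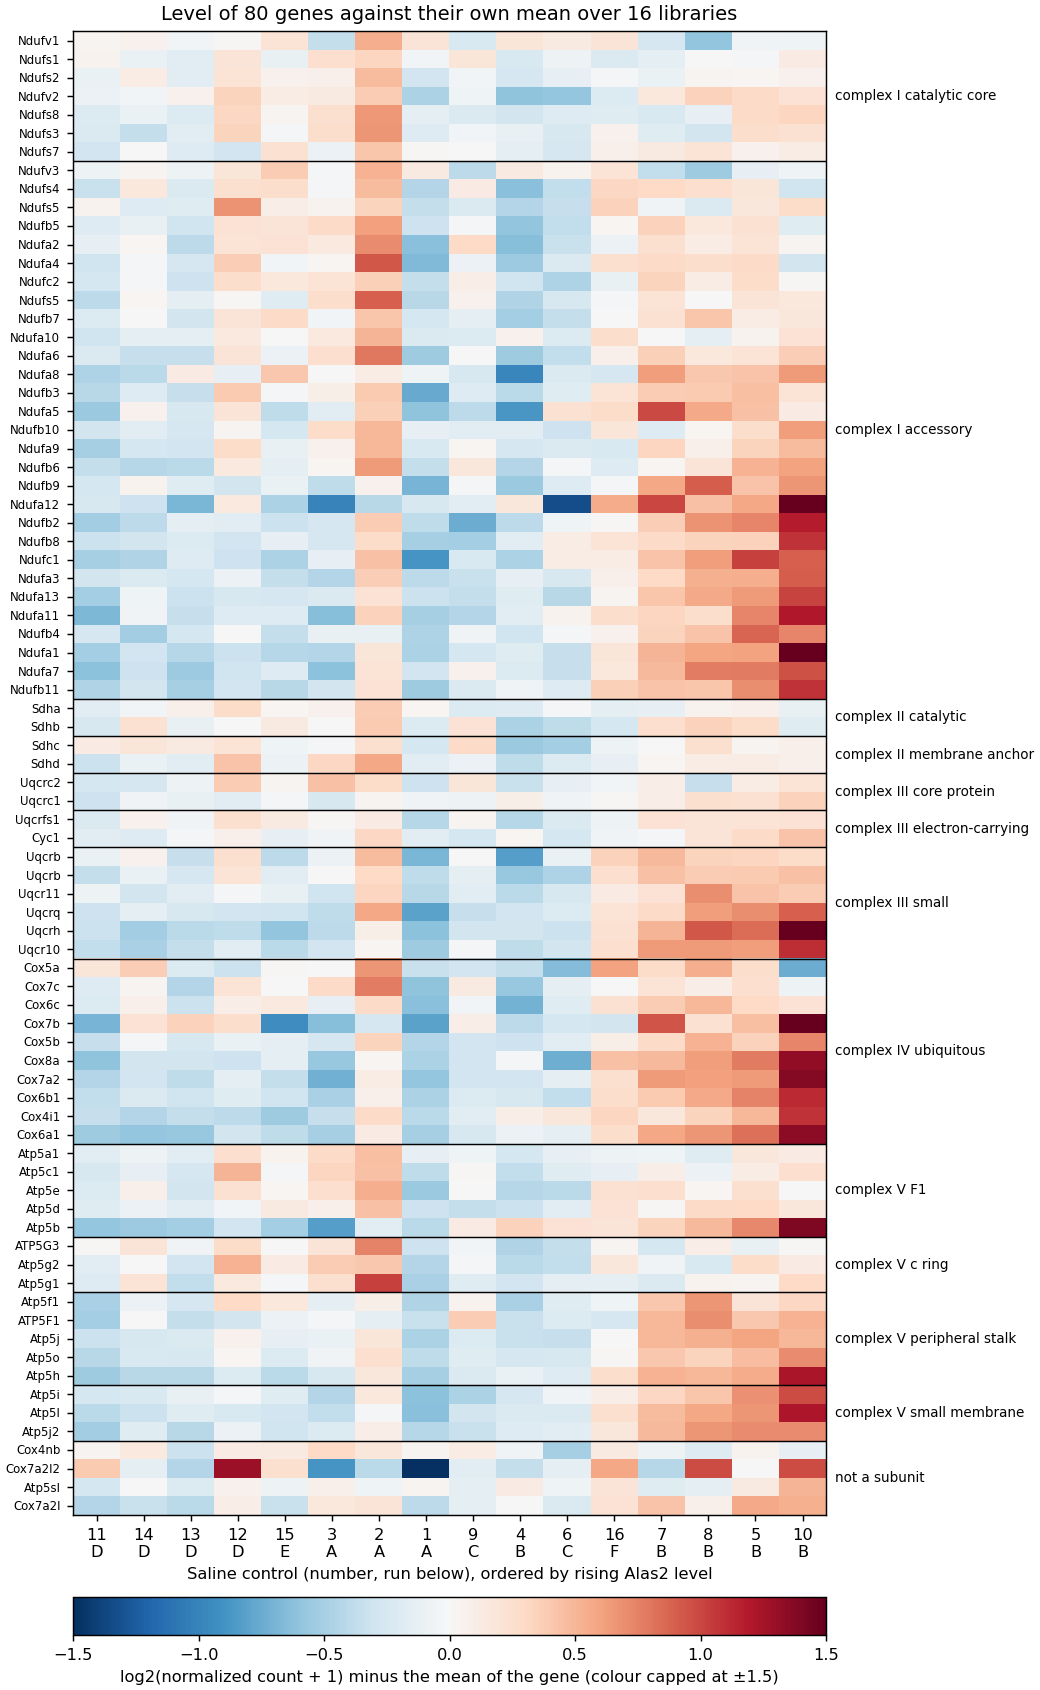
Rows are the 80 members with a mean of at least 100 normalized counts, grouped by complex and role and ordered by correlation with Alas2 within a group, and columns are the 16 libraries by rising Alas2. Colour gives the log2 level minus the gene's mean. Red gathers on the right, in controls 7, 8, 5 and 10, for accessory, small and stalk subunits, while control 2 is red in the catalytic core of complex I and in complex II.

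In complex I, none of the 7 catalytic core subunits, which hold the flavin and iron-sulfur centres, had r above 0.8, and their median was 0.15. Ndufs7 had the highest value, 0.42, and Ndufv1, which binds the flavin, the lowest, -0.25. Among the accessory subunits (29 genes above the minimum) the median was 0.53, and 10 exceeded 0.8. With total count scaling the medians of the core and the accessory subunits were -0.50 and -0.09, and without controls 10 and 5 they were -0.15 and 0.35. With run means subtracted both were positive, at 0.38 and 0.58. With median-ratio scaling the highest accessory subunits were Ndufb11 (0.91), Ndufa7 (0.90) and Ndufa1 (0.88). The lowest was 1 of the 2 entries of Ndufv3 (-0.34). Ndufa1 had 12130 normalized counts in control 11, a median of 14268 and 51857 in control 10. Ndufs1, the largest iron-sulfur subunit of the core, varied least in complex I, with a coefficient of 12.0% against 53.6% for Ndufa1. Ndufs1 ranged from 485 normalized counts in control 4 to 709 in control 2, and control 10 was at 616. The most variable was the accessory subunit Ndufa12, with a coefficient of 70.2% and a range from 898 in control 6 to 8646 in control 10. The other entry of Ndufv3 was the lowest member of complex I, between 24.8 and 165 normalized counts, with control 2 highest.

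Complex II was followed by all of its 4 genes. Sdha ranged from 926 normalized counts in control 9 to 1383 in control 2, with a coefficient of 11.7%, the lowest of its complex. Sdhb, the iron-sulfur protein, ranged from 476 in control 4 to 867 in control 2. The membrane anchors Sdhc and Sdhd ranged from 626 to 1128 and from 729 to 1427. Correlations with Alas2 were -0.20 for Sdha, 0.08 for Sdhb, -0.10 for Sdhc and 0.11 for Sdhd. With run means subtracted they were higher, at 0.46, 0.24, 0.38 and 0.47. Their median was then 0.42, against -0.003 for all genes. Control 10, the highest library for Alas2, was neither the highest nor the lowest for any of the 4 (989, 585, 973 and 1001 for Sdha, Sdhb, Sdhc and Sdhd). Control 2 was highest for 3 of the 4.

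In complex III, the small subunits had a median r of 0.70 (6 genes), with Uqcr10 and Uqcrh highest (0.89 and 0.88). Uqcrh had 12690 normalized counts in control 1 and 54787 in control 10, with a coefficient of 54.3%. Controls 8 and 5 followed at 37077 and 34683, so the 3 highest libraries were all of run B. The core proteins, which face the matrix, differed from each other: Uqcrc1 had r = 0.88 and Uqcrc2 0.09 (0.72 and 0.43 with run means subtracted). Uqcrc1 nonetheless varied least of its complex, with a coefficient of 12.2%, from 971 in control 11 to 1532 in control 10. With total count scaling r was -0.24 for Uqcrc1 and 0.67 for Uqcrh, and the median of the small subunits was -0.01. Cyc1 and Uqcrfs1, which carry the electrons, had 0.59 and 0.32. The lowest member of complex III was 1 of the 2 entries of Uqcrb, from 143 in control 4 to 358 in control 7.

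In complex IV the ubiquitous nuclear subunits had a median r of 0.80 (10 genes; 0.43 with total count scaling), and Cox6a1 the highest value of all members, 0.94. Cox6a1 had 7665 normalized counts in control 14 and 28871 in control 10. Controls 5, 8 and 7 lay next, at 20276, 18123 and 17113, and the 3 lowest libraries were all of run D. Cox4i1, the regulatory subunit that binds adenine nucleotides, had r = 0.90 and ranged from 6274 in control 15 to 19286 in control 10. Cox7b varied most, with a coefficient of 60.2%, from 2569 in control 15 to 16114 in control 10, and had r = 0.63, or 0.35 without controls 10 and 5. Cox5a, a small matrix-side subunit, differed from these: r was -0.05, and control 10 was the lowest of 16 at 1437, while control 2 was the highest at 3811. The ratio of Cox6a1 to Cox5a counts accordingly ran from 2.47 in control 14 to 20.1 in control 10, with a next highest value of 7.05.

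In complex V the catalytic head F1 divided within itself over the 16 libraries. Atp5b had r = 0.93, and the other 4 F1 genes 0.05 (Atp5a1), 0.15 (Atp5c1), 0.17 (Atp5e) and 0.43 (Atp5d). The gap was narrower with run means subtracted, where Atp5b had 0.82 and these 4 had 0.55, 0.46, 0.26 and 0.51. The genes of the c ring, which turns in the membrane, had a median of 0.05, or 0.32 with run means subtracted. The peripheral stalk had a median of 0.73 (5 entries) with Atp5h highest at 0.91, and the small membrane subunits Atp5i, Atp5l and Atp5j2 lay between 0.79 and 0.88. Atp5l ranged from 4202 normalized counts in control 1 to 14968 in control 10. By total count scaling Atp5b had 0.83 and the small membrane subunits a median of 0.60, the peripheral stalk fell to a median of 0.10, and values were -0.45 for Atp5a1 and a median of -0.52 for the c ring.

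**Figure D3:**
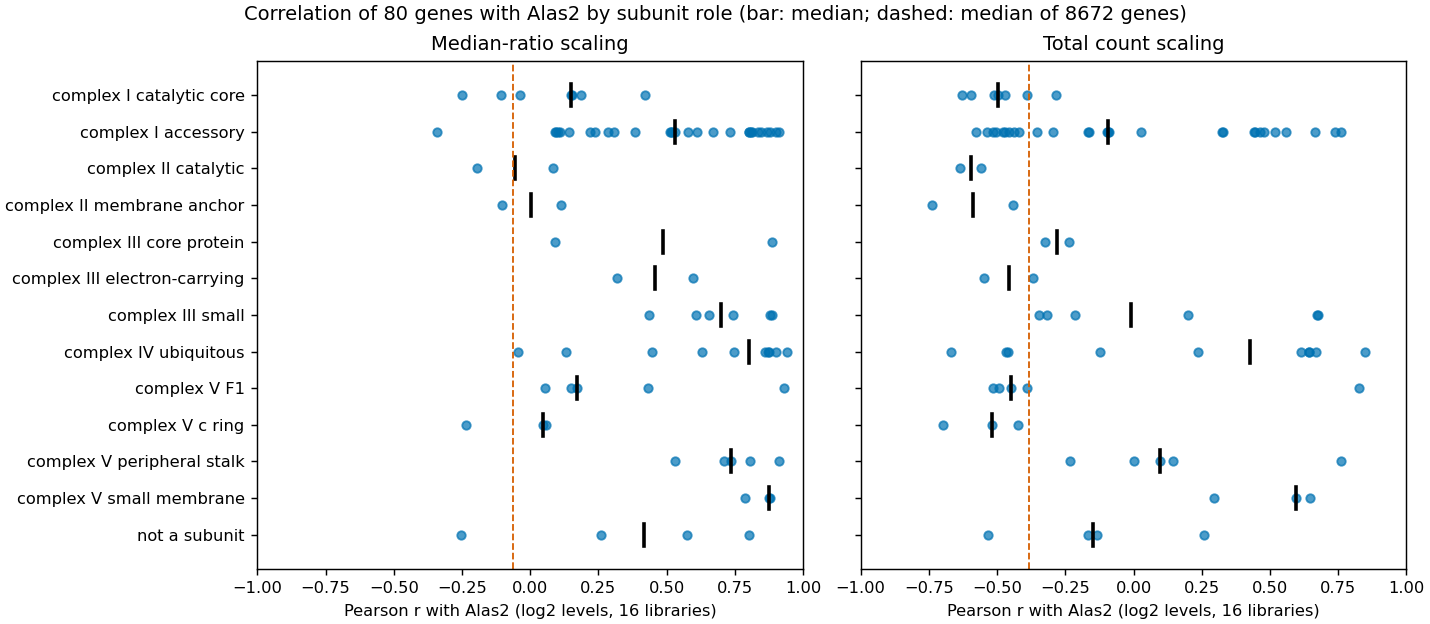
Each point is 1 of 80 members, placed by its Pearson correlation with Alas2 over 16 libraries (horizontal axis, -1 to 1) and by its role. Black bars are medians by role and the dashed line is the median of 8672 genes, -0.06 with median-ratio scaling and -0.38 with total counts. The small membrane subunits of complex V lie right of the line at both scalings, as does the median of the ubiquitous subunits of complex IV, of which Cox5a, Cox7c and Cox6c (-0.67, -0.47 and -0.46) fall left of it with total counts, and complex II and the c ring lie near it or left of it.

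The pair Atp5b and Atp5a1 shows the division most plainly, since their proteins are present in equal number in each head. Atp5b had 15094 normalized counts in control 3, a median of 26527 and 70484 in control 10. Atp5a1 had 2974 in control 4, a median of 3396 and 4888 in control 2. The ratio of their counts does not depend on the scaling of a library. It was 3.46 in control 3, 7.33 at the median and 18.2 in control 10, and the next highest value was 11.8. Run B held 9.93 to 18.2, above run A (3.46 to 6.14) and run D (5.17 to 5.91) without overlap. The log2 ratio had r = 0.85 and a Spearman value of 0.81 with Alas2 over 16 libraries, 0.77 without controls 10 and 5, and 0.53 with run means subtracted. The ratio of Sdha to Sdhb, by contrast, stayed between 1.21 and 2.05, with r = -0.22. The ratios of Ndufa1 to Ndufs1 (18.8 to 84.1) and of Uqcrh to Uqcrc2 (7.69 to 33.6) had r of 0.89 and 0.82. With run means subtracted they had 0.82 and 0.53. The level of Alas2 is scaled, so r with it still depends on scaling. With total count scaling of Alas2, r was 0.76 for Atp5b to Atp5a1, 0.66 for Ndufa1 to Ndufs1 and 0.56 for Uqcrh to Uqcrc2. These pairs were chosen with earlier values known, so the ratios are descriptions.

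**Figure D4:**
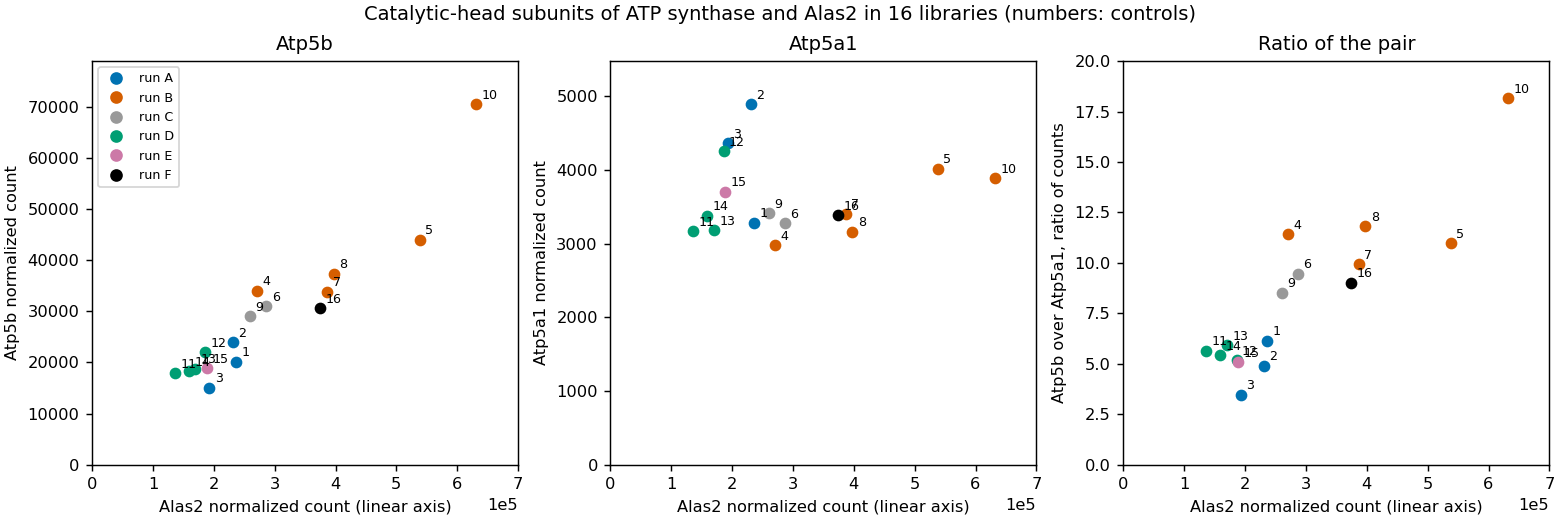
The horizontal axes give the Alas2 level in normalized counts on a linear scale, and the vertical axes the levels of Atp5b and Atp5a1 and the ratio of their counts, all from 0. Each point is 1 library, numbered by control and coloured by run. Atp5b climbs with Alas2 to 70484 in control 10, Atp5a1 stays between 2974 and 4888, and their ratio runs from 3.46 to 18.2.

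Likeness among the members themselves followed the same lines. The median r between pairs of members was 0.55 over 3160 pairs, against -0.02 for pairs of all genes. With total count scaling the values were 0.31 and 0.39. The 4 members most like Atp5b were Cox4i1 (0.93), Cox6a1 (0.92), Cox7a2 (0.89) and Atp5h (0.89). The 4 most like Atp5a1 were Ndufs8 (0.95), an iron-sulfur core subunit, then Ndufs3 and Atp5c1 (both 0.91) and Sdhd (0.90). Which library was highest divided the same way. Control 10 was highest for 30 of the 80 members (37.5%, against 10.7% of all genes) and control 2 for 29 (36.2%, against 10.1%). In complex I control 2 was highest for 19 of 36 genes and control 10 for 11, whereas in complex III control 10 was highest for 6 of 10 and control 2 for 0.

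In 4 isoform pairs of complex IV, nearly all counts came from the ubiquitous isoform. Summed over the 16 libraries, Cox4i1 had 148360 counts and its lung-enriched isoform Cox4i2 29, and Cox6a1 had 188800 against 29 for the heart and muscle isoform Cox6a2. Cox8a had 72233 counts against 23 for the muscle isoform Cox8b, and Cox6b1 had 38264 against 151 for the testis isoform Cox6b2. The ubiquitous isoform was higher in 16 of 16 libraries in each of the 4 pairs. Of the 23 Cox8b counts 7 came from control 10, and of the 29 Cox6a2 counts 8. Control 10 also had the highest level of Mb, myoglobin, at 204 normalized counts against at most 27.95 elsewhere. The part of heart muscle RNA in these counts was not tested. Of the 3 genes for the identical mature c subunit, Atp5g2 had 32762 counts, ATP5G3 19440 and Atp5g1 6120, an order kept in 16 of 16 libraries. In log2, Atp5g2 exceeded Atp5g1 by 2.43 ± 0.26 (SD, n = 16) and ATP5G3 by 0.75 ± 0.21. These counts are not corrected for transcript length.

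The 5 genes not counted as subunits did not share 1 pattern. Cox4nb, a component of an endoplasmic reticulum complex and so not mitochondrial, lay between 99.8 and 174 normalized counts with r = -0.25. Cox7a2l, which joins complexes III and IV, had r = 0.80. Atp5sl lay between 365 and 624, with the lowest coefficient among genes named for complex V, 14.2%. Atp5s was the lowest of complex V, from 25.2 in control 15 to 153 in control 10. Cox7a2l2 ranged from 55.7 in control 1 to 390 in control 12.

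Runs A, B and D, with 3, 5 and 4 libraries, were compared to see which members set them apart. Differences between runs cannot be told apart from differences between the experiments they may come from, and p-values measure only the spread between these libraries. The test was edgeR's quasi-likelihood test with Benjamini-Hochberg adjustment over 12952 genes, of which 83 were members. Cox4i2, Cox6a2 and Cox8b were too low to be tested. All 3 comparisons share libraries in pairs.

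Run D differed from run B in 298 genes (2.3%), 5 higher and 293 lower. Members called were 3 of 83 (3.61%), all lower in run D, against 2.26% of all genes called lower, a share near the background. With an unadjusted p under 0.05 there were 32 members (38.6%) lower in run D and 0 higher, against 9.16% and 2.14% of all genes (11.3% in either direction). DESeq2 called 20 members, all lower, against 5.5% of all genes, and limma-voom called 2 (2.41%), both lower, against 2.29% of all genes.

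The 3 members called each belong to a different complex. Atp5b had 34000, 44023, 33814, 37332 and 70484 normalized counts in controls 4, 5, 7, 8 and 10 of run B, and 17859, 21997, 18792 and 18336 in controls 11 to 14 of run D. The groups did not overlap, and the log2 change was -1.18 ± 0.25 (SE, edgeR adjusted p = 0.0367). Cox6a1 had 10725, 20276, 17113, 18123 and 28871 in run B and 7891, 9444, 7724 and 7665 in run D. Again the groups did not overlap, with control 4 nearest to run D (log2 change -1.20 ± 0.27, edgeR adjusted p = 0.0406). Ndufa7, an accessory subunit of complex I, had 741, 1471, 1196, 1457 and 1666 in run B and 558, 698, 585 and 688 in run D. Its groups were separated by a narrow gap, since control 4 stood at 741 and control 12 at 698 (log2 change -1.03 ± 0.24, edgeR adjusted p = 0.0455). All 3 calls were lost when any of controls 5, 7, 10, 11, 12, 13 or 14 was left out, 1 member was called without control 3 or control 8, and 26 were called without control 4. With total count scaling 0 members were called, and 27 had an unadjusted p under 0.05, 20 of them higher in run D.

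By role, 0 of the 7 catalytic core genes of complex I passed an unadjusted p of 0.05 in this comparison, and 12 of its 30 accessory subunits did. Complex II had 0 of 4, the small subunits of complex III 3 of 6, the ubiquitous subunits of complex IV 6 of 10, and the F1 genes 1 of 5, which was Atp5b. The c ring had 0 of 3, the peripheral stalk 4 of 5 and the small membrane subunits 3 of 3. Of the core proteins of complex III 1 of 2 passed (Uqcrc1), and of Cyc1 and Uqcrfs1 0 of 2. The tissue-restricted isoform Cox6b2 did not pass, and 2 of the 5 genes not counted as subunits did. All that passed were lower in run D, beside 9.16% of all genes. Median log2 changes were -0.03 for the complex I core and -0.41 for its accessory subunits. They were 0.06 for complex II, -0.58 for the small subunits of complex III, -0.75 for the ubiquitous subunits of complex IV and -0.79 for the small membrane subunits of complex V. The median of all 12952 genes was 0.04 and that of the 83 members -0.33. With total count scaling these 2 medians were 0.53 and 0.24, so the sign of the members' median turned, while its distance from that of all genes was -0.37 with TMM scaling and -0.29 with total counts. Role and run were read from the same libraries as the correlations above, and so these counts are not separate evidence for them.

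**Figure D5:**
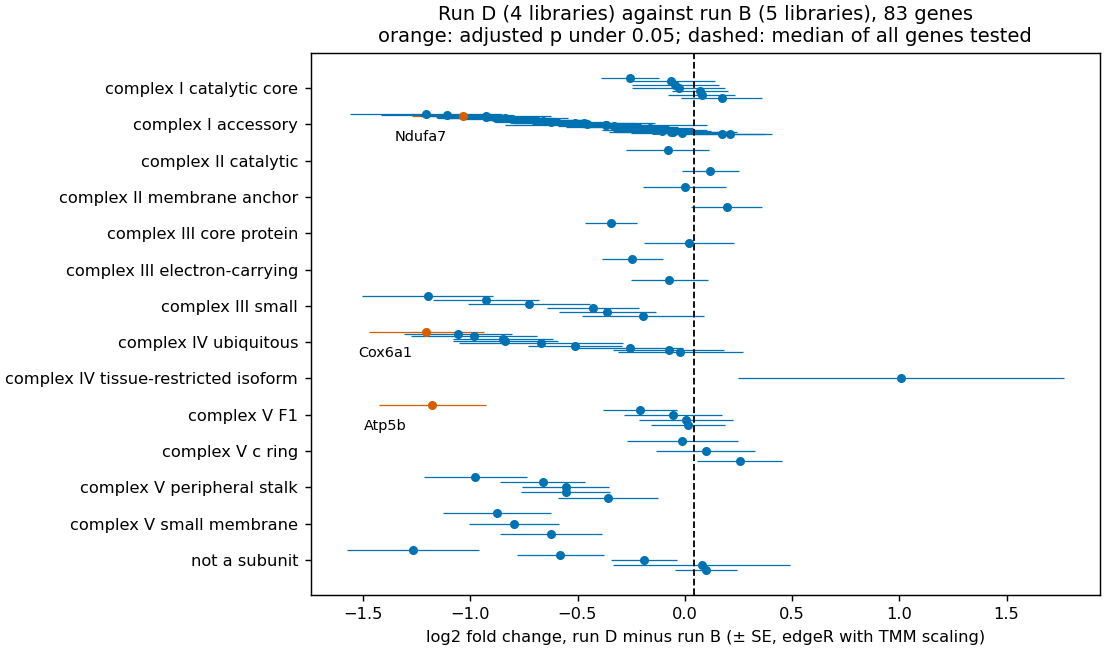
Each point is 1 of 83 members, with its log2 fold change of run D (4 libraries) minus run B (5 libraries) and SE on the horizontal axis, grouped by role. The dashed line is the median of all genes, 0.04. Atp5b, Cox6a1 and Ndufa7, in orange, were called lower in run D, and complex II, the complex I core and the c ring lie about the dashed line.

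Between runs B and A edgeR called 0 genes and 0 members (0% of all genes). An unadjusted p under 0.05 was found for 1755 genes (13.6%), with 26 members (31.3%) higher in run B and 1 lower, against 8.47% and 5.08% of all genes. DESeq2 called 563 genes, 9 of them members and all higher in run B, against 4.06% of all genes called higher, and limma-voom called 7 genes (0.054%) and 0 members. The smallest p among the members were those of Atp5b, Ndufa12 and Cox8a. Atp5b had 20164, 24010 and 15094 normalized counts in run A, all below the 33814 to 70484 of run B (log2 change 1.14 ± 0.28, edgeR adjusted p = 0.116). Ndufa12 had 1128 to 1914 in run A and 2535 to 8646 in run B (1.47 ± 0.40, edgeR adjusted p = 0.132). Cox8a had 2973 to 4469 in run A and 4325 to 11035 in run B, with control 2 just above control 4 (1.01 ± 0.28, edgeR adjusted p = 0.136). The median change of the members was 0.20, beside -0.03 for all genes, and -0.31 beside -0.50 with total count scaling. It rested on single libraries, with 0.03 without control 1, 0.35 without control 2 and 0.30 without control 4.

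Between runs D and A edgeR called 0 genes and 0 members (0% of all genes), and limma-voom also 0. An unadjusted p under 0.05 was found for 5.41% of all genes, with 1 member higher in run D (1.2%, against 1.79% of all genes) and 0 lower (against 3.62%). DESeq2 called 14 genes (0.108%) and 0 members. That 1 member was Cox7a2l2, with 55.7 to 120 normalized counts in run A and 118 to 390 in run D (log2 change 1.30 ± 0.49, edgeR adjusted p = 0.765). Ndufs7, an iron-sulfur core subunit of complex I, had -0.32 ± 0.15 and the low entry of Ndufv3 -1.05 ± 0.52 (edgeR adjusted p = 0.918 for both), with overlapping groups. The median change of the members was -0.15, beside -0.01 for all genes, but it turned to 0.06 without control 2 and was -0.27 without control 1, so it has no direction that holds across the 3 libraries of run A.

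The erythroid markers moved with these run differences. All 8 were lower in run D than in run B at an unadjusted p under 0.05, and 4 were called: Alas2, Slc4a1, Ahsp and Epb42. Their summed level was 338969 to 489541 in run D, 481155 to 577405 in run A and 693231 to 1422780 in run B. The part of these and the following markers in the members' differences was not tested. Between runs D and B, none of the tested markers of platelets (7), T cells (7), B cells (4), monocytes (5), neutrophils (6) or all leukocytes (4) was called or had an unadjusted p under 0.05. The same held for 3 of 8 heart muscle and 3 of 5 adipose markers, the others being too low to be tested. Between runs B and A 0 markers were called, but 6 of the 8 erythroid markers, 3 of the 6 neutrophil markers and 1 of 5 monocyte markers were higher in run B at an unadjusted p under 0.05, and 1 of 4 B cell markers was lower. The median log2 change was 1.08 for the erythroid and 2.13 for the neutrophil markers. The summed neutrophil level was 56336 to 198990 normalized counts in run A and 54920 to 1050430 in run B, so these ranges overlapped. Between runs D and A 1 adipose marker was higher at an unadjusted p under 0.05, and the neutrophil markers had a median log2 change of 1.83 with 0 passing.

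Other genes of the pathway gave few calls. The 13 protein genes of mitochondrial DNA, which complete complexes I, III, IV and V, had 0 called in the 3 run comparisons by edgeR. Between runs D and B, 2 of the 13 were lower at an unadjusted p under 0.05, and their median log2 change was -0.38. The 12 of them above the minimum had a median r of 0.49 with Alas2, with the highest for COX1 (0.70) and a low one for ND1 (0.23). Their summed level ranged from 720625 normalized counts in control 1 to 1682800 in control 2, and was therefore not highest in control 10. Of 40 assembly factor entries 0 were called, with 1 lower between runs D and B at an unadjusted p under 0.05, a median r of 0.003 and a median change of 0.0001. Of 13 genes of the tricarboxylic acid cycle, Dlst was called, with 1784 to 2470 normalized counts in run D and 3160 to 6026 in run B (log2 change -1.14 ± 0.22, edgeR adjusted p = 0.0303). Of 8 carriers and the ATP synthase inhibitor, Ucp2, an uncoupling protein of the inner membrane, was called, with 99600 to 141994 in run D and 180308 to 380984 in run B (-1.17 ± 0.27, edgeR adjusted p = 0.0455). The list of 11 tested genes of mitochondrial biogenesis had 0 called and 0 at an unadjusted p under 0.05 in the 3 comparisons. The 15 tested entries of electron carriers had 0 called, with 2 lower in run B than in run A and 2 lower in run D than in run A at an unadjusted p under 0.05.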

How the data were processed

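Whole blood RNA of 16 rats was sequenced, 1 library each. The authors converted base calls with CASAVA 1.8.2, clipped the reads with fastq-mcf, aligned them with Bowtie 0.12.9 to the rat transcriptome of Ensembl release 70 (rn5) and estimated counts per gene with RSEM 1.2.0. The authors deposited estimated counts, which are not normalized. Of the values of a library 19.3% to 27.1% had decimals, and all were rounded to whole numbers before use. RSEM divides a read that fits several genes among them, so entries of near-identical copies are uncertain. Gene lists differed between files, and the 18031 genes listed in all of them were used. The rule that shortened the lists is not given in the sources used here. The study replaced outlying values before its own analysis, which was not done here.

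Levels are counts divided by DESeq2 1.42.0 size factors, and log2 levels use a pseudocount of 1. Runs with at least 3 libraries were compared with edgeR 4.0.16 (R 4.3.3, quasi-likelihood test, TMM scaling, filterByExpr, 1 fit over 12 libraries, adjusted p threshold 0.05). Alternatives were DESeq2, limma-voom (limma 3.58.1), other scalings, no filter on low counts, no globin genes and leaving out each library. The test was run on simulated data first. Correlations were computed on log2 levels without a test. Shares carry 95% Wilson intervals, and the depth of 21466776 to 31189549 counts per library sets their width.

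Members and lists were chosen with earlier results of these data known. Named were the 2 highest and the lowest member of each complex by mean, those of lowest and highest coefficient of variation among genes with a mean of at least 100, isoform pairs, and up to 10 called members, or the 3 of smallest p, in each run comparison. Others, such as the subunits set beside these by role, were named after their values were seen. Alternatives without controls 10 and 12, without the libraries farthest in Alas2 and with run means subtracted were added after the data were seen. The letters of the NRF1 motif were likewise chosen after the matches of 3 spellings were seen, and all 3 are reported. Promoter windows are from RefSeq (GRCr8), which is not the build of the files, and its coordinates are given with the printed sequences alone.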

Additional observations from a re-analysis of the deposited data

Results flagged for a closer look

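Complex I genes took 0.25% of the counts of control 10, against 0.167% to 0.181% in the other 4 libraries of run B, a gap of 0.825 of the range of the run. They took 0.1997% of the counts of control 12, against 0.149% to 0.154% in the other 3 libraries of run D, a gap of 0.9003 of the range. By these shares both libraries stood out from their run by Dixon's critical value (0.71 for 5 libraries and 0.829 for 4). The mark on control 12 depended on globin counts, which were 5.32% of its total and 11.3% to 15.2% in the rest of run D. With globin left out, control 12 had 0.211%, against 0.168% to 0.179%, and its gap fell below 0.829. Control 10 then had 0.273%, against 0.176% to 0.2%, and its gap stayed above 0.71. In all, 10 such groups were examined (5 complexes in 2 runs), and chance alone marks about 1 in 20, or 0.5 here. The 2 libraries differed in what came with the high share. Control 10 was highest of 16 for Alas2 and the heart muscle markers and lowest in the complex II share. Control 12 was highest in the complex II share. It was also highest in the summed adipose markers (6563 normalized counts, median 1047) and the summed T cell markers (16639, median 10239). The part of these markers in either share was not tested.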

How the results depend on the processing

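Of the main values, 215 recomputed under an alternative stayed near the main value (counts within 1.5 times, others within 1 SD or SE), 5 moved, 15 became stronger and 24 weaker. Of the 215, 214 kept their direction, and the members' median change between runs D and A turned from -0.15 to 0.06 without control 2. Total count scaling turned the median log2 change of the members from 0.20 to -0.31 (run B minus run A) and from -0.33 to 0.24 (run D minus run B), and the median r with Alas2 from 0.52 to -0.22. It raised the median coefficient of complex II from 17.3% to 24.5%. With a mean of at least 1000 that complex was left with Sdha alone, whose own coefficient was 11.7%. Between runs D and B, 2.3% of all genes and 3 members were called. Total count scaling called 0.0463% and 0 members, no filter on low counts 1.16% and 0 members, DESeq2 5.73% and 20 members, and the fit without controls 10 and 12 0.0469% and 0 members. Leaving out 1 library gave 0.0155% to 5.44% of genes and 0 to 26 members. Between runs B and A, DESeq2 called 4.35% of genes and 9 members and limma-voom 0.054% of genes. Leaving out 1 library gave 0% to 3.93% and 0 to 15 members there, the highest without control 4. Between runs D and A, DESeq2 called 0.108% of genes, and leaving out 1 library gave 0% to 0.015%. Among the members named for the smallest p in each run comparison, 1 changed sign, the low entry of Ndufv3 between runs D and A. It had -1.48 to 0.0991 when 1 library was left out, the highest without control 2. Over all members directions held less well. With total count scaling 20 members were higher and 7 lower in run D than in run B at an unadjusted edgeR p under 0.05. The main fit had 0 and 32. The r of Uqcrc1 with Alas2 likewise turned from 0.88 to -0.24. The causes were not tested. No paired analysis was possible because all libraries form 1 group. Depth limits the tissue-restricted isoforms, with 0 to 36 counts a library.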
